A study of Mus musculus with 8 samples.

Results

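Expression of 10 genes of hepatic iron handling was followed in mouse primary hepatocytes across genotype and ethanol exposure. The genes were Hamp, Hfe, Tfr2, Slc40a1, Steap4, Slc39a14, Tfrc, Fth1, Cp and Trf. Members were taken by an exact match of the platform's gene symbol, and 9 of the 10 had at least 1 probe set (a group of short probes that reports 1 transcript) of their own, out of 18194 genes with such a probe set on the array. Trf, which encodes the plasma iron carrier transferrin, was represented by 1 probe set whose annotation also names Srprb, so no value is given for it. For each gene the probe set with the highest mean over the arrays leads, and the others are given beside it.

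The cells came from mice of the C57BL6/129SVJ strain and were incubated for 15 h. Knockout (KO) hepatocytes lacked transglutaminase 2, a calcium-dependent enzyme that cross-links proteins, and were exposed to 100 mM ethanol or left untreated. Wild-type (WT) hepatocytes were exposed to 100 mM ethanol or left untreated in the same way. Each of the 4 groups had 2 arrays, A and B, for 8 arrays in all. The study's title links transglutaminase 2 to cross-linking and silencing of the transcription factor Sp1 in liver injury. How the knockout allele was made, and the age and sex of the mice, are not given in the labels.

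Hepatocytes sense body iron and set its release into the blood. They secrete hepcidin, the product of Hamp, a small hormone that binds the iron exporter ferroportin (Slc40a1) and causes its degradation. Transcription of Hamp is raised by bone morphogenetic proteins (BMPs) acting through SMAD proteins, a route to which the membrane proteins HFE and transferrin receptor 2 contribute, and by interleukin 6 acting through STAT3. Iron enters the cell through transferrin receptor 1 (Tfrc) or, when it is not bound to transferrin, through the metal transporter ZIP14 (Slc39a14). It is stored in ferritin, of which Fth1 encodes the heavy chain.

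Tgm2, which encodes transglutaminase 2, had 704.3 and 628.2 normalised intensity units in ethanol-exposed KO cells and 377.6 and 367.6 in untreated KO cells, against 16836 on both arrays of ethanol-exposed WT cells and 16656 and 16836 in untreated WT cells, on its brightest probe set. The genotype labels matched the targeted gene on all 8 arrays. All 8 hepatocyte markers examined were among the tested probe sets, with a summed intensity of 97256 to 100095 in ethanol-exposed KO cells and 95215 to 95988 in untreated KO cells, against 102178 to 102480 in ethanol-exposed WT cells and 98437 to 101223 in untreated WT cells. Most of that sum came from probe sets at the top of the range, which normalisation holds together, and single markers did differ. In untreated KO cells 2 were higher and 4 lower, where 15.3% of all probe sets tested were higher and 16.9% lower. With the arrays scaled by their trimmed mean, 6 were higher and 2 lower. Ahsg, for example, had 4262 and 3952 units in untreated KO cells, against 10537 and 10245 units in untreated WT cells. Before normalisation the trimmed mean intensity was 113.3 to 117.5 on 3 of the 4 KO arrays, and 228.0 to 341.5 on the remaining KO array (B with ethanol) and the WT arrays together. Pcx control probe sets at the 3′ and 5′ ends of their transcript, which reflect RNA and labelling quality, gave a 3′ over 5′ ratio of 4.91 and 5.45 in ethanol-exposed KO cells and 10.6 and 8.69 in untreated KO cells, against 26.7 and 44.5 in ethanol-exposed WT cells and 10.02 and 16.8 in untreated WT cells. The part of array brightness and of this ratio in the differences below was not tested, except where another scaling of the arrays is given. The spike-in controls bioC and bioB, added at fixed amounts, separated the arrays into 2 sets by their ratio: ethanol KO A, ethanol WT A and untreated WT A had ratios of 0.937 to 1.06, and the other 5 arrays had 2.59 to 3.14. This division is read from the controls and is not a batch named by the labels.

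Intensities were quantile normalised, which gives every array the same distribution of values, and differences were tested on log2(intensity + 16) with limma across 19814 probe sets. A probe set was called when its Benjamini-Hochberg adjusted p was under 0.05. Adjusted p-values below come from that fit unless another scaling or model term is named, in which case limma was fitted in that setting. A value after ± is the standard error (SE) of a log2 difference. The 9 genes had 30 probe sets: 24 were tested, 2 of Cp were too dim to be tested, 1 of Slc39a14 had no usable value on 1 array, and 3 were Affymetrix control probe sets for Tfrc. Of the tested probe sets, 5 lay at the top of the measured range (both of Hamp, both of Fth1 and the leading one of Cp), above 9204 units on both arrays of at least 1 group. The highest value after normalisation was 18006.

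In untreated cells, KO hepatocytes had more Steap4, Slc39a14, Hamp and Cp and less Slc40a1, Hfe, Tfr2 and Tfrc than WT hepatocytes by leading probe sets. That is 4 genes higher and 4 lower, with Fth1 the 1 gene of 9 not called. For Tfrc the second probe set was called the other way (0.69 ± 0.17, adjusted p = 0.0135). The size of the difference ran from 2.90-fold higher for Steap4 to 2.39-fold lower for Slc40a1. Over all probe sets tested, 32.3% were called in this comparison, 15.3% higher and 16.9% lower. Counting probe sets, 13 of 24 were higher and 6 lower. The 2 KO arrays did not overlap the 2 WT arrays for 8 of the 9 leading probe sets, against 71.1% of all probe sets. The median log2 difference of the 9 leading probe sets was −0.01, against −0.04 for all tested probe sets.

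With ethanol, 5 of the 9 genes were called between KO and WT hepatocytes, against 29.1% of all probe sets tested. Steap4 and Slc39a14 were higher in KO cells (background 14.0% higher) and Slc40a1, Hfe and Tfrc lower (background 15.1% lower). Hamp, Tfr2, Fth1 and Cp were not called. These are calls of the leading probe sets. The second probe set of Tfrc was called higher in KO cells, and that of Slc40a1 was not called. Among the 24 probe sets, 10 were higher and 4 lower. These counts include dim probe sets that passed the filter on low values only through the genotype where they were higher: 1 of Cp in both comparisons, and 1 each of Tfrc and Hfe with ethanol. The arrays of the 2 genotypes did not overlap for 7 of the 9 leading probe sets, against 60.9% of all probe sets. The median of the 9 leading probe sets was −0.16, against −0.05 for all tested.

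**Figure D1:**
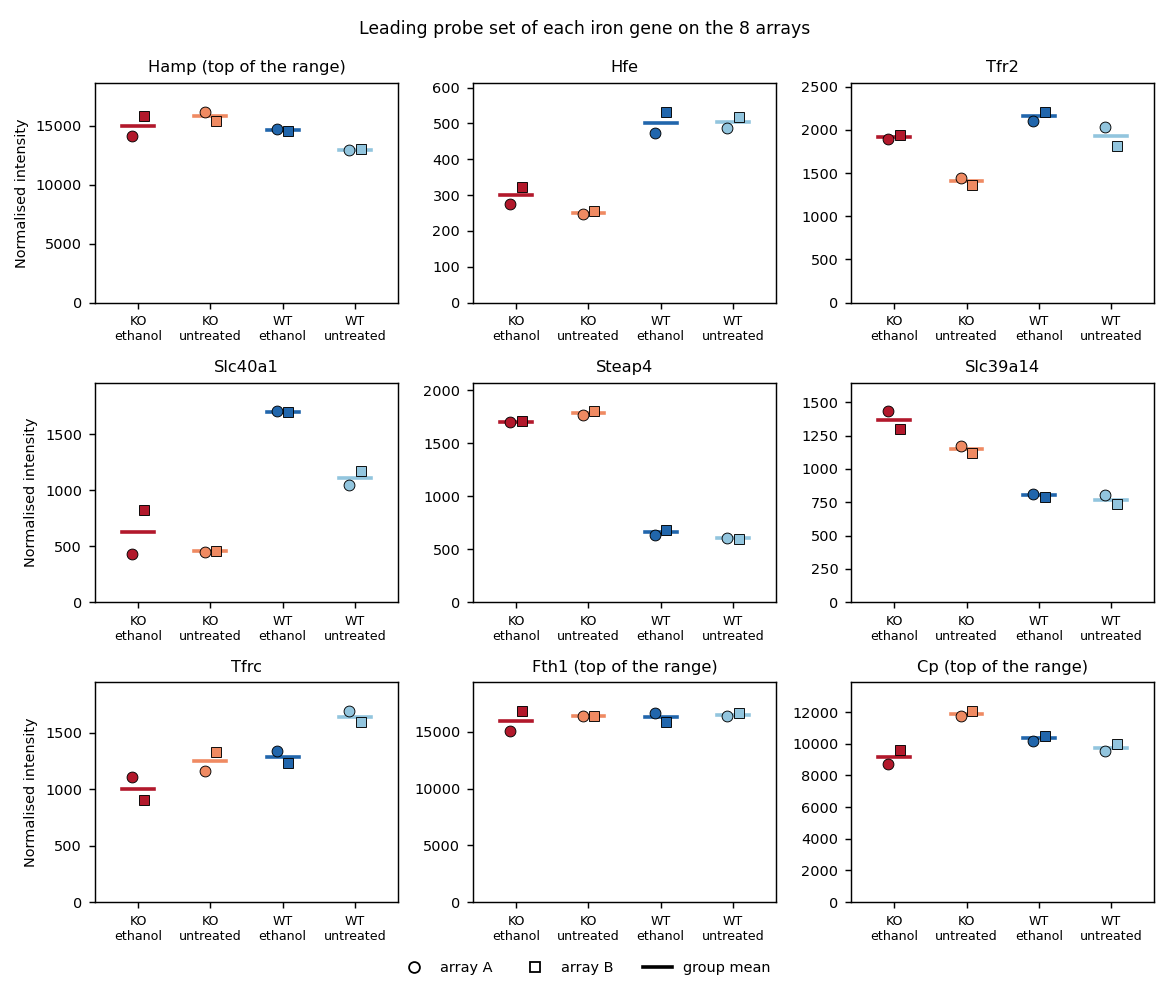
Normalised intensity (vertical axis, from 0, linear) of the leading probe set of each of the 9 iron genes on the 8 arrays, with KO groups left of WT groups and ethanol left of untreated within each. Circles are A arrays, squares are B arrays and bars are group means of 2 arrays. Steap4 and Slc39a14 are higher on all 4 KO arrays and Hfe and Slc40a1 are lower on all 4, while Hamp, Fth1 and Cp lie at the top of the measured range.

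Hamp, which encodes hepcidin, had a leading probe set (1419196_at) among the brightest, ranking between 8 and 64 of 39627 probe sets on the 8 arrays. It had 14115 and 15847 units in ethanol-exposed KO cells and 16206 and 15401 in untreated KO cells, against 14742 and 14573 in ethanol-exposed WT cells and 12926 and 13069 in untreated WT cells. Both untreated KO arrays were above both untreated WT arrays, while with ethanol the WT values fell between those of the KO arrays. Untreated KO cells had a log2 difference of 0.28 ± 0.07 from untreated WT cells (adjusted p = 0.0105), and the second Hamp probe set gave 0.33 ± 0.06 (adjusted p = 0.00308). With ethanol the difference between KO and WT was 0.03 ± 0.07 (adjusted p = 0.786). The difference between these genotype effects, which is the ethanol by genotype interaction, was −0.25 ± 0.10 and was not called (adjusted p = 0.158). The call in untreated cells was lost without untreated KO array A, without untreated WT array A and without untreated WT array B, and also without the intensity trend in the variance model. The adjusted p over all alternatives ran between 2.99e-04 and 0.116.

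Probe sets this bright are held close together by quantile normalisation, because the highest values of every array are set to the same numbers. With the arrays scaled instead by their trimmed mean, Hamp had 17697 and 13027 units in ethanol-exposed KO cells and 26612 and 24677 in untreated KO cells, against 13227 and 12990 in ethanol-exposed WT cells and 12125 and 11568 in untreated WT cells. Untreated KO cells then had a log2 difference of 1.11 from untreated WT cells (adjusted p = 2.99e-04). The size of the Hamp difference therefore depended on the scaling, while its direction in untreated cells was the same on both scales. As deposited, without either scaling, the genotypes overlapped. Those intensities were 13744 and 13160 in untreated KO cells, against 12605 and 16196 in untreated WT cells. The arrays with the largest scaled values were those with the lowest trimmed means. On the trimmed-mean scale ethanol in KO cells changed Hamp by −0.75 (adjusted p = 0.00481), against −0.08 ± 0.07 (adjusted p = 0.428) on the quantile scale, and the interaction was −0.90 (adjusted p = 0.0275).

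Hamp2 encodes a second mouse hepcidin and is a near copy of Hamp. It is not one of the 10 genes and was looked at after its values had been seen, because its leading probe set (1436643_x_at) lay well below the top of the range. The suffix _x_ marks a probe set whose probes can also bind other transcripts, so its signal may include Hamp transcript and cannot be told apart from it. This probe set had 3348 and 3353 units in ethanol-exposed KO cells and 3480 and 3360 in untreated KO cells, against 2628 and 2420 in ethanol-exposed WT cells and 1742 and 1629 in untreated WT cells. All 4 KO arrays were above all 4 WT arrays, and within WT both ethanol arrays were above both untreated arrays. The KO minus WT difference was 1.01 ± 0.07 untreated (adjusted p = 1.53e-05) and 0.41 ± 0.07 with ethanol (adjusted p = 0.00285), ethanol gave 0.58 ± 0.07 in WT (adjusted p = 0.00227) and −0.03 ± 0.07 in KO (adjusted p = 0.804), and the interaction was −0.61 ± 0.10 (adjusted p = 0.0127).

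The 250 bases before the transcription starts of Hamp and Hamp2 are shown because the control described above acts on Hamp and because Hamp2 is its near copy, and they are set beside those of Steap4, the member with the largest genotype difference, and of Tfr2, the member whose ethanol response in KO cells was called on both probe sets. Sequences are from RefSeq on GRCm38.p6, 5′ to 3′ on the gene's own strand, with windows found for 7 of the 10 members (12 windows). Capitals mark matches, on either strand, to GGGCGG (the GC box bound by Sp1), GGCGCC (the core of a BMP response element), CACGTG (the E-box) or TTCNNNGAA (the STAT motif, N being any base). The windows are chr7:30944030-30944279 on the minus strand for Hamp, chr7:30924182-30924431 on the minus strand for Hamp2, chr5:7960222-7960471 on the plus strand for Steap4 and chr5:137569590-137569839 on the plus strand for the first of 3 Tfr2 starts.
Hamp: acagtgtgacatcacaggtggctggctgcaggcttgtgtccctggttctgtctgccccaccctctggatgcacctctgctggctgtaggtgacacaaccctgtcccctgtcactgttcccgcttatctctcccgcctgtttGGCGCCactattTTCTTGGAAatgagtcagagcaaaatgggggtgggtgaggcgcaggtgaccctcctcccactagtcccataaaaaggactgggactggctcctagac
Hamp2: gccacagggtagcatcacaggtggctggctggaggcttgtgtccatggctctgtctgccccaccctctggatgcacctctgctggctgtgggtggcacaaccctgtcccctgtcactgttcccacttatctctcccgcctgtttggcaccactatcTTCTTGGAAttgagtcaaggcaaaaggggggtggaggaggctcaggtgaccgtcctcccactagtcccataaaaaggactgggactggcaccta
Steap4: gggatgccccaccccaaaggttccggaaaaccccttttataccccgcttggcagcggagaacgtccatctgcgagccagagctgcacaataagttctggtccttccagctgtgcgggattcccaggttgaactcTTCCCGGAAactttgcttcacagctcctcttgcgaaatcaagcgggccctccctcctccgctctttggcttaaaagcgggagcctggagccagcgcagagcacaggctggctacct
Tfr2: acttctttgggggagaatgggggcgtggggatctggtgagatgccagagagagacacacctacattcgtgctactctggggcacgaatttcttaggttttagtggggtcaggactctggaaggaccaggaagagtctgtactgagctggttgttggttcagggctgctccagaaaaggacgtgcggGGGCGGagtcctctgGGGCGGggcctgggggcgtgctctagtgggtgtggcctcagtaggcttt
The Hamp window held GGCGCC with its first base 109 bases before the start and the STAT motif at 97 bases. Hamp2 held the STAT motif at 94 bases and no GGCGCC, although the windows were 89.7% identical over 253 aligned columns. Steap4 held the STAT motif at 116 bases, and the Tfr2 window shown held 2 GC boxes, at 64 and 49 bases. The windows of the remaining Tfr2 starts held none of these motifs. Among 32851 mouse windows of the same length, 7.02% held the STAT motif, 9.59% GGCGCC, 32.7% the GC box and 6.02% the E-box. Of the 12 member windows 3 held a GC box, 2 GGCGCC, 2 the STAT motif and 0 the E-box. A match describes the letters only.

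Hfe encodes a membrane protein that takes part in iron sensing upstream of hepcidin and is mutated in hereditary haemochromatosis in humans. The leading Hfe probe set (1422645_at) had 275.3 and 323.3 units in ethanol-exposed KO cells and 246.0 and 256.0 in untreated KO cells, against 471.9 and 532.5 in ethanol-exposed WT cells and 488.2 and 516.9 in untreated WT cells. No KO array reached the lowest WT array. Hfe was 1.94-fold lower in untreated KO cells than in untreated WT cells (log2 difference −0.96 ± 0.12, adjusted p = 4.03e-04) and 1.65-fold lower with ethanol (−0.72 ± 0.12, adjusted p = 0.00230). A second, dim probe set (1450702_at) had 7.72 and 26.2 units in ethanol-exposed KO cells and 22.6 and 25.8 in untreated KO cells, against 49.9 and 65.8 in ethanol-exposed WT cells and 55.0 and 63.1 in untreated WT cells, and it passed the filter on low values through the WT arrays. Neither ethanol comparison was called for Hfe.

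Tfr2 encodes transferrin receptor 2, the iron sensor of hepatocytes that binds transferrin. The leading Tfr2 probe set (1459994_x_at) had 1901 and 1944 units in ethanol-exposed KO cells and 1447 and 1368 in untreated KO cells, against 2101 and 2211 in ethanol-exposed WT cells and 2038 and 1819 in untreated WT cells. Untreated KO cells were the low group, and the ethanol-exposed KO values reached the range of untreated WT cells. Tfr2 was 1.36-fold lower in untreated KO cells than in untreated WT cells (−0.45 ± 0.08, adjusted p = 0.00262), and the second probe set gave −0.59 ± 0.11 (adjusted p = 0.00317). With ethanol the KO minus WT differences were −0.16 ± 0.08 (adjusted p = 0.163) and 0.15 ± 0.11 (adjusted p = 0.340), neither of them called. Ethanol raised Tfr2 in KO cells by 0.45 ± 0.08 on the leading probe set (adjusted p = 0.00516) and by 0.79 ± 0.11 on the second (adjusted p = 0.00174). In WT cells the ethanol differences were 0.16 ± 0.08 (adjusted p = 0.331) and 0.04 ± 0.11 (adjusted p = 0.902). The test of the difference between the ethanol effects was called on the second probe set (0.74 ± 0.16, adjusted p = 0.0282) and not on the leading one (0.28 ± 0.11, adjusted p = 0.183). Without untreated KO array B, the ethanol call of the leading probe set in KO cells was lost.

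Slc40a1 encodes ferroportin, the iron exporter on which hepcidin acts. Its leading probe set (1417061_at) had 431.9 and 823.9 units in ethanol-exposed KO cells and 446.9 and 461.6 in untreated KO cells, against 1702 and 1695 in ethanol-exposed WT cells and 1044 and 1174 in untreated WT cells. All 4 KO arrays were below all 4 WT arrays, and ethanol KO array B stood apart from the other 3 KO arrays. Slc40a1 was 2.39-fold lower in untreated KO cells than in untreated WT cells (−1.26 ± 0.23, adjusted p = 0.00260) and 2.80-fold lower with ethanol (−1.48 ± 0.23, adjusted p = 0.00126). The second probe set (1448566_at) had 422.1 and 310.2 units in ethanol-exposed KO cells and 187.7 and 185.2 in untreated KO cells, against 332.8 and 382.0 in ethanol-exposed WT cells and 334.5 and 366.4 in untreated WT cells. It agreed in direction in untreated cells (−0.85 ± 0.16, adjusted p = 0.00286), while with ethanol the KO values lay around those of WT (0.02 ± 0.16, adjusted p = 0.938). The lower level of Slc40a1 in ethanol-exposed KO cells therefore rests on 1 of its 2 probe sets. Ethanol raised the second probe set in KO cells by 0.90 ± 0.16 (adjusted p = 0.00429), and the leading one gave 0.38 ± 0.23 (adjusted p = 0.255). That leading value depended on single arrays: it was 0.84 without ethanol KO array A and −0.07 without the B ethanol arrays. In WT cells the leading probe set had an ethanol difference of 0.61 ± 0.23 that was not called (adjusted p = 0.176).

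Macrophages of the liver also express ferroportin, and their markers were therefore set beside it. The 7 Kupffer cell and macrophage markers on the array summed to 2012 to 2311 units in ethanol-exposed KO cells and 1551 to 1609 in untreated KO cells, against 1056 to 1087 in ethanol-exposed WT cells and 941.3 to 979.0 in untreated WT cells. Cd68, a lysosomal protein that is not restricted to macrophages, made up most of that sum on the KO arrays, with 1859 and 1633 units in ethanol-exposed KO cells and 1255 and 1236 in untreated KO cells, against 536.0 and 569.6 in ethanol-exposed WT cells and 411.4 and 449.8 in untreated WT cells. Clec4f, a defining Kupffer cell marker, was dim everywhere, between 64.4 and 91.1 units. Of the 5 markers tested, 1 was higher and 2 lower in untreated KO cells, against 15.3% higher and 16.9% lower over all probe sets tested. The 4 cholangiocyte markers on the array summed to 768.1 to 1118 units on the KO arrays, against 311.5 to 459.8 units on the WT arrays. Most of that came from Sox9, with 685.6 to 1049 units on the KO arrays and 231.9 to 323.1 on the WT arrays. Epcam, Krt19 and Krt7 were dim, from 0.747 to 122.0 units, and their KO and WT values overlapped. In untreated cells Krt19 was lower in KO, with 40.9 and 24.9 units, against 49.6 and 49.0 in WT. In bulk RNA fewer cells of a type and less RNA per cell cannot be told apart, and the part of other cell types in these differences was not tested.

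Steap4 encodes a metalloreductase that reduces ferric iron so that it can be transported, and it is known to be induced by inflammatory cytokines. Its leading probe set (1460197_a_at) had 1695 and 1710 units in ethanol-exposed KO cells and 1765 and 1799 in untreated KO cells, against 632.2 and 684.9 in ethanol-exposed WT cells and 606.4 and 601.2 in untreated WT cells. The 4 KO arrays lay close together and far above every WT array. Steap4 was 2.90-fold higher in untreated KO cells than in untreated WT cells (1.54 ± 0.08, adjusted p = 2.19e-06) and 2.55-fold higher with ethanol (1.35 ± 0.08, adjusted p = 4.30e-06). The second probe set gave 1.31 ± 0.13 untreated (adjusted p = 7.71e-05) and 1.78 ± 0.13 with ethanol (adjusted p = 1.24e-05). Both calls were kept in each of the alternatives run, of which 1 put the second probe set in place of the leading one. Ethanol gave −0.07 ± 0.08 in KO cells (adjusted p = 0.594) and 0.12 ± 0.08 in WT cells (adjusted p = 0.493) on the leading probe set, neither called. The second probe set was lower in ethanol-exposed than in untreated WT cells, by −0.53 ± 0.13 (adjusted p = 0.0406), opposite in sign to the leading one.

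Slc39a14 encodes ZIP14, which carries iron not bound to transferrin into hepatocytes. The brightest Slc39a14 probe set (1427035_at) had 1430 and 1298 units in ethanol-exposed KO cells and 1175 and 1122 in untreated KO cells, against 813.5 and 788.0 in ethanol-exposed WT cells and 802.6 and 737.1 in untreated WT cells. Every KO array was above every WT array. Slc39a14 was 1.48-fold higher in untreated KO cells than in untreated WT cells (0.57 ± 0.09, adjusted p = 0.00121) and 1.69-fold higher with ethanol (0.76 ± 0.09, adjusted p = 2.76e-04). A second probe set (1425649_at) gave 0.20 ± 0.13 untreated (adjusted p = 0.294) and 0.84 ± 0.13 with ethanol (adjusted p = 0.00143), and rose with ethanol in KO cells by 0.57 ± 0.13 (adjusted p = 0.0142). Another (1438490_at) gave 0.93 ± 0.24 untreated (adjusted p = 0.0140) and 0.67 ± 0.24 with ethanol (adjusted p = 0.0584). All 3 were positive in both KO against WT comparisons, although each comparison was called on only 2 of them. The fourth, left out of the tests, had deposited intensities of 2.35 to 22.003 on the 7 arrays with a usable value.

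**Figure D2:**
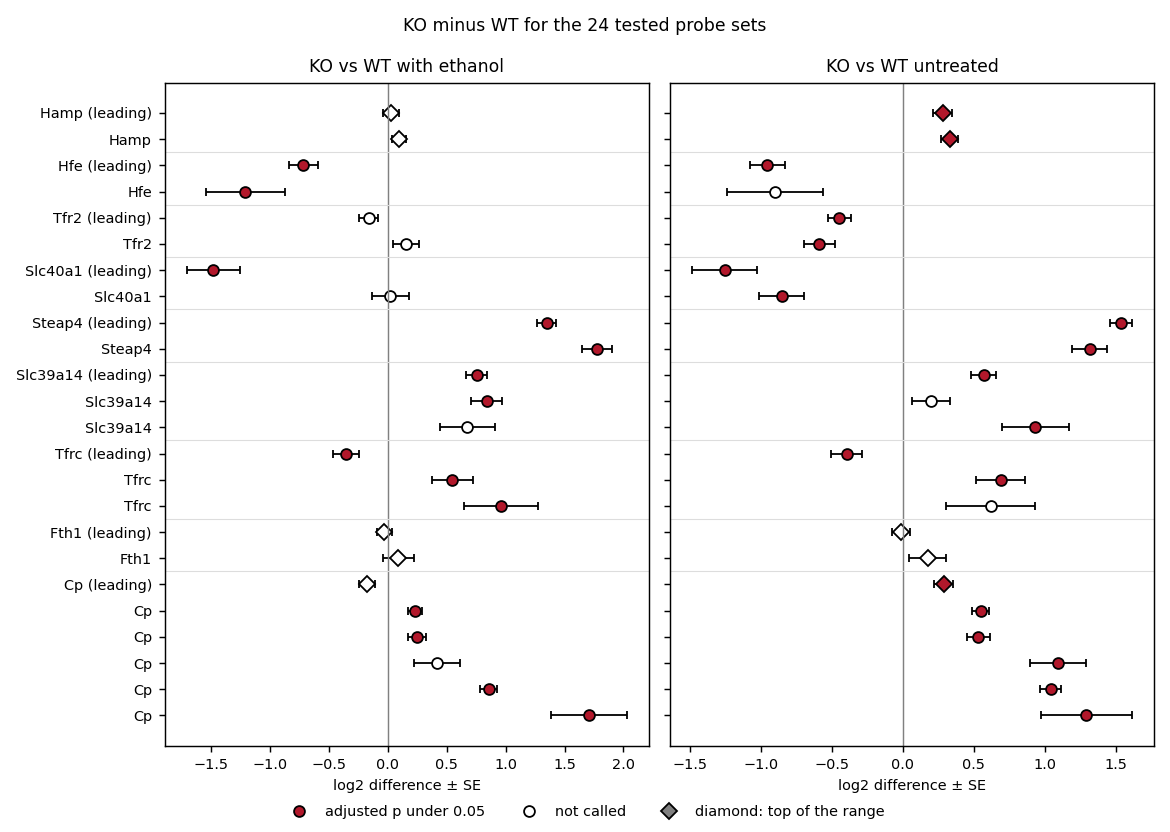
Log2 difference of KO minus WT (horizontal axis, points with SE bars) for the 24 tested probe sets of the 9 iron genes, with ethanol on the left and untreated on the right. Filled points were called at an adjusted p under 0.05, diamonds lie at the top of the range, and 14 points are filled on the left against 19 on the right. The leading Tfrc probe set lies left of 0 while its other 2 lie right of 0 in both panels.

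Tfrc encodes transferrin receptor 1, and its messenger RNA is stabilised by iron regulatory proteins when the cell is short of iron. The leading probe set (1452661_at) had 1104 and 903.2 units in ethanol-exposed KO cells and 1162 and 1327 in untreated KO cells, against 1336 and 1230 in ethanol-exposed WT cells and 1690 and 1594 in untreated WT cells. KO values were below WT values at each ethanol level. It was 1.32-fold lower in untreated KO cells than in untreated WT cells (−0.40 ± 0.11, adjusted p = 0.0225) and 1.28-fold lower with ethanol (−0.35 ± 0.11, adjusted p = 0.0395). The second probe set (1422966_a_at) ran the other way, with 149.5 and 183.8 units in ethanol-exposed KO cells and 235.0 and 288.8 in untreated KO cells, against 101.3 and 116.2 in ethanol-exposed WT cells and 155.3 and 155.8 in untreated WT cells. It was called higher in KO cells, by 0.69 ± 0.17 untreated (adjusted p = 0.0135) and 0.55 ± 0.17 with ethanol (adjusted p = 0.0404). The remaining, dim probe set (1422967_a_at) had 29.1 and 36.0 units in ethanol-exposed KO cells and 44.0 and 55.1 in untreated KO cells, against 6.18 and 11.9 in ethanol-exposed WT cells and 22.4 and 31.3 in untreated WT cells, and passed the filter through the KO arrays. From the 2 brighter probe sets, no single direction of the genotype difference can be given for Tfrc. The calls of the leading probe set were lost in 5 of 21 alternatives untreated, among them those without untreated KO array A and without either untreated WT array. With ethanol they were lost in 13 of 22, among them those without each array in turn other than ethanol KO array A.

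Under ethanol the Tfrc probe sets moved one way. All 3 had negative ethanol differences in both genotypes. The leading and the second probe set gave −0.31 and −0.61 in KO cells and −0.35 and −0.46 in WT cells. The 1 call among the 6 differences of the 3 probe sets was the second probe set in KO cells (−0.61 ± 0.17, adjusted p = 0.0343). The Affymetrix control probe sets for Tfrc, which were not normalised or tested, had deposited intensities of 46.0 and 191.3 in ethanol-exposed KO cells and 67.3 and 93.2 in untreated KO cells, against 55.1 and 76.3 in ethanol-exposed WT cells and 89.3 and 118.9 in untreated WT cells at the 3′ end. At the 5′ end they had 12.1 to 44.4 over the 8 arrays.

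Fth1 encodes the heavy chain of ferritin, the iron storage protein, and was the second brightest of 39627 probe sets by mean. Its leading probe set (1448771_a_at) had 15106 and 16836 units in ethanol-exposed KO cells and 16379 on both arrays of untreated KO cells, against 16656 and 15905 in ethanol-exposed WT cells and 16379 and 16656 in untreated WT cells. Equal values on different arrays arise because quantile normalisation gives the same value to the same rank. No comparison was called, and the 4 differences between groups lay between −0.04 and −0.01. On the trimmed-mean scale untreated KO cells had 27621 and 26253 units, against 15058 and 13864 units in untreated WT cells, a log2 difference of 0.90 (adjusted p = 0.00173). On that scale ethanol in KO cells changed Fth1 by −0.67 (adjusted p = 0.0127). The second probe set (1427021_s_at), also at the top of the range, had 15043 and 10576 units in ethanol-exposed KO cells and 13708 and 13637 in untreated KO cells, against 11868 and 11838 in ethanol-exposed WT cells and 12592 and 11646 in untreated WT cells. Its untreated KO and WT arrays did not overlap, but the difference of 0.17 ± 0.13 was not called (adjusted p = 0.350), nor was any other on the quantile scale. On the trimmed-mean scale it was 0.96 (adjusted p = 0.0245). At this brightness the deposited intensities give no direction for Fth1 that is independent of the scaling.

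**Figure D3:**
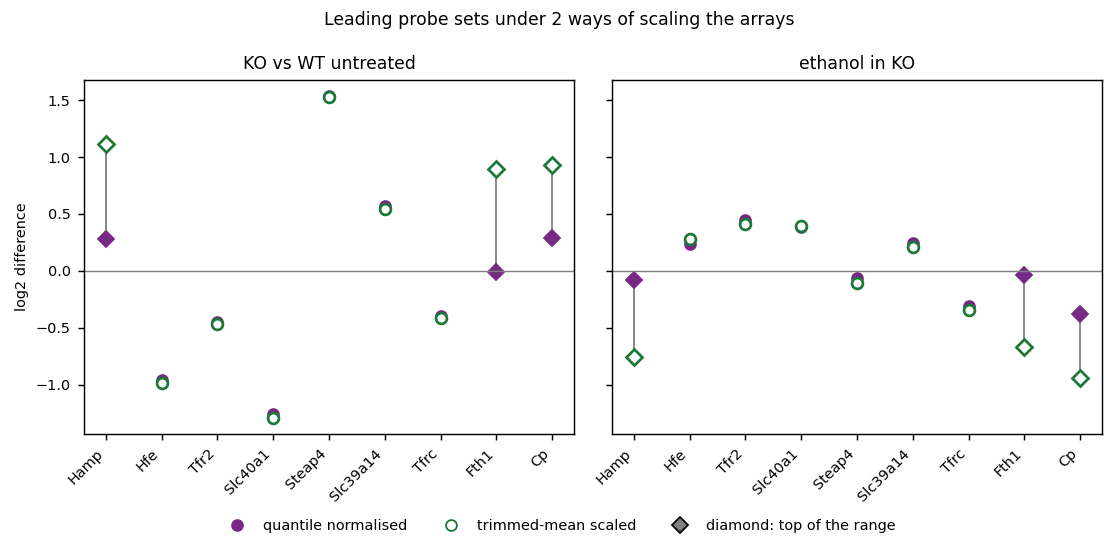
Log2 difference (vertical axis) of the leading probe sets for KO against WT in untreated cells (left) and for ethanol in KO cells (right), with filled purple points for quantile normalised arrays and open green points for arrays scaled by their trimmed mean. The 3 genes at the top of the range (diamonds: Hamp, Fth1 and Cp) move with the scaling, and the other 6 stay in place.

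The differences of the other 6 leading probe sets changed little with this choice, although Tfrc gained a call for ethanol in KO cells. It had −0.34 (adjusted p = 0.0437) on the trimmed-mean scale, against −0.31 (adjusted p = 0.0763) on the quantile scale. In untreated cells the KO minus WT difference on the trimmed-mean scale was 1.53 for Steap4, −1.29 for Slc40a1, −0.98 for Hfe, −0.47 for Tfr2, −0.42 for Tfrc and 0.54 for Slc39a14, all called. The median over all tested probe sets was −0.04 on both scales in that comparison. With ethanol it was −0.05 on the quantile scale and 0.06 on the trimmed-mean scale.

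Cp encodes ceruloplasmin, a copper-containing ferroxidase of plasma that oxidises the iron released by ferroportin. Its leading probe set (1417494_a_at), at the top of the range, had 8706 and 9581 units in ethanol-exposed KO cells and 11727 and 12065 in untreated KO cells, against 10191 and 10487 in ethanol-exposed WT cells and 9538 and 9969 in untreated WT cells. Untreated KO cells were the high group and ethanol-exposed KO cells the low one apart from an overlap with untreated WT cells. The probe set 1417496_at, well inside the range, had 1982 and 2051 units in ethanol-exposed KO cells and 2761 and 2638 in untreated KO cells, against 1093 and 1119 in ethanol-exposed WT cells and 1331 and 1279 in untreated WT cells. There all 4 KO arrays were above all 4 WT arrays. In untreated cells the leading probe set was called higher in KO (0.29 ± 0.07, adjusted p = 0.00862), as were 4 others with differences of 0.53 to 1.09. With ethanol the leading probe set was not called between KO and WT (−0.18 ± 0.07, adjusted p = 0.0688), whereas 3 of those 4 were called higher in KO, by 0.23 to 0.86. The dimmest, 1441326_at, is given here by its values only, because it passed the filter on low values through the KO arrays. It had 77.9 and 128.7 units in ethanol-exposed KO cells and 102.7 and 92.01 in untreated KO cells, against 27.8 and 13.1 in ethanol-exposed WT cells and 23.7 and 38.1 in untreated WT cells. On the trimmed-mean scale the leading probe set gave 0.93 untreated (adjusted p = 9.36e-05) and −0.11 with ethanol (adjusted p = 0.426). The untreated call of the leading probe set was lost without untreated KO array A, without untreated KO array B, without untreated WT array A, and in 2 other alternatives.

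Ethanol lowered Cp in KO cells. The leading probe set fell by 0.38 ± 0.07 on the log2 scale (adjusted p = 0.00410), or by 0.95 with trimmed-mean scaling (adjusted p = 4.62e-04), and 4 of the 6 probe sets were called lower, among them 1417496_at (−0.42 ± 0.07, adjusted p = 0.00416). In WT cells the leading difference was 0.08 ± 0.07 (adjusted p = 0.583), and no Cp probe set was called. The leading probe set gave the only called interaction among the 9 leading ones, −0.46 ± 0.09 (adjusted p = 0.0224), against 5.35% of all probe sets tested (3.57% higher, 1.78% lower). Among the other probe sets, the second of Tfr2 was also called, as given above. With trimmed-mean scaling the interaction of the leading Cp probe set was −1.04 (adjusted p = 0.00413). On that scale 1417495_x_at (−0.81, adjusted p = 0.00645), 1455393_at (−0.57, adjusted p = 0.0474) and 1448734_at (−1.13, adjusted p = 0.0483) were also called, and the remaining ones were not. On the quantile scale none of the other 5 Cp probe sets was called for the interaction, and all but the dimmest gave −0.67 to −0.18. The interaction call was lost without each of 6 arrays in turn (both untreated KO arrays and all 4 WT arrays). The call of the leading Cp probe set for ethanol in KO cells was lost without untreated KO array B. Without ethanol KO array B, the leading probe sets of Hamp and Slc40a1 had interactions of −0.34 and −0.68. With all arrays the leading Slc40a1 probe set gave −0.23 ± 0.32 (adjusted p = 0.719). The second Slc40a1 probe set had the opposite sign, with 0.88 ± 0.22 (adjusted p = 0.0540). On the trimmed-mean scale that second probe set was called (0.91, adjusted p = 0.0338).

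Taking the ethanol comparisons as a whole, 2 of the 9 genes were called in KO cells, Tfr2 higher and Cp lower, against 22.2% of all probe sets tested (11.4% higher, 10.8% lower). In WT cells 0 of the 9 genes were called by limma, against 5.58% of all probe sets tested (1.67% higher, 3.91% lower), and 3 had an unadjusted p under 0.05. Among the 24 probe sets 4 were higher and 5 lower with ethanol in KO cells, and 1 was lower in WT cells. Ethanol and untreated arrays did not overlap for 6 of the 9 leading probe sets in KO cells and for 6 in WT cells, against 60.0% and 53.1% of all probe sets. The 9 leading probe sets had a median ethanol difference of −0.04 in KO cells and 0.08 in WT cells, against −0.01 and 0.01 for all tested probe sets. With single arrays left out, the called genes changed in both genotypes, and the called share over all probe sets moved as well. Without either ethanol-exposed KO array, Hamp, Tfrc and Slc40a1 were called in WT cells. In KO cells Tfrc and Slc40a1 were called in addition without ethanol KO array A, Hamp and Slc39a14 in addition without ethanol KO array B, and neither Tfr2 nor Cp without untreated KO array B. On the trimmed-mean scale 5 genes were called in KO cells.

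**Figure D4:**
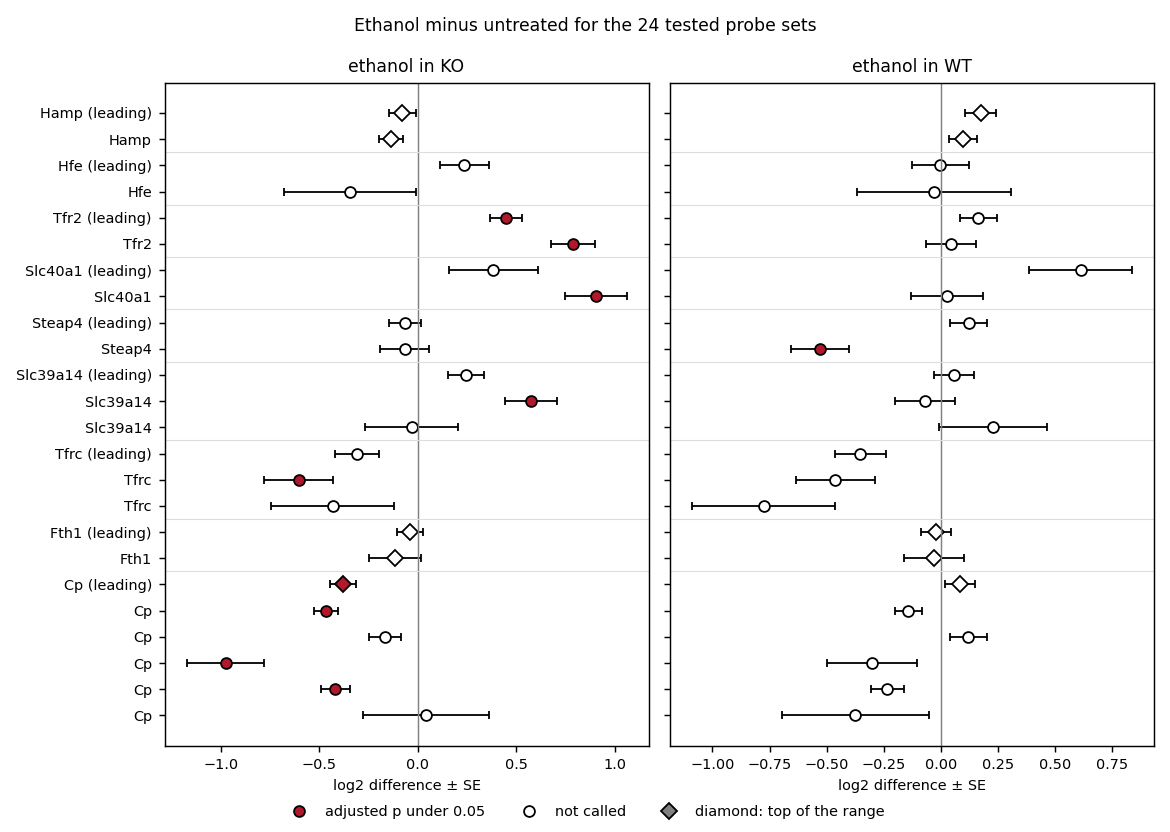
Log2 difference of ethanol minus untreated (horizontal axis, points with SE bars) for the 24 tested probe sets, in KO cells on the left and in WT cells on the right. Filled points were called at an adjusted p under 0.05 and diamonds lie at the top of the range. In KO cells 9 points are filled, with both Tfr2 probe sets right of 0 and 4 of 6 Cp probe sets left of 0, against 1 in WT cells.

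Within the spike-in sets, only the sizes of the called genotype differences are informative. Their direction was fixed in advance, because the KO and WT arrays of these probe sets did not overlap. With ethanol, each set held 1 KO and 1 WT array, and the KO minus WT difference in the first and the second set was 1.40 and 1.30 for Steap4, 0.80 and 0.71 for Slc39a14, −0.74 and −0.69 for Hfe, −0.27 and −0.44 for Tfrc, and −1.94 and −1.03 for Slc40a1. Slc40a1 differed most between the sets. In untreated cells only the second set held both genotypes, with 2 KO arrays and 1 WT array, and gave 0.27 for Hamp, −1.34 for Slc40a1, 1.54 for Steap4, −0.997 for Hfe, 0.63 for Slc39a14, −0.37 for Tfr2, −0.36 for Tfrc and 0.25 for Cp. With the spike-in set as a term in the fit, all 8 genes called in untreated cells stayed called. That fit also called Cp lower in KO cells with ethanol (−0.18 ± 0.06, adjusted p = 0.0404). Tfrc was called lower with ethanol in KO cells (−0.39 ± 0.10, adjusted p = 0.0274). In KO cells, where only the second set held both ethanol levels, the ethanol difference was 0.46 for Tfr2 and −0.31 for Cp.

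Regulators of hepcidin were described from 2 lists. The interleukin 6 and STAT3 list of 10 tested genes had 6 higher and 0 lower in untreated KO cells and 5 higher and 0 lower with ethanol, counts that include Il6. Over all probe sets tested 15.3% were higher and 16.9% lower untreated, and 14.0% were higher and 15.1% lower with ethanol. The list had medians of 0.47 in both against −0.04 and −0.05 for all tested probe sets. Il6, the cytokine itself, had 120.6 and 195.8 units in ethanol-exposed KO cells and 349.0 and 369.5 in untreated KO cells, against 1.52 and 17.1 in ethanol-exposed WT cells and 12.9 and 19.8 in untreated WT cells, and passed the filter on low values through the KO arrays. All 4 KO arrays were above all 4 WT arrays, and no size is given for the difference because the WT values were near 0. Socs3, a feedback inhibitor that STAT3 induces, had 304.5 and 345.3 units in ethanol-exposed KO cells and 384.9 and 363.7 in untreated KO cells, against 174.5 and 167.6 in ethanol-exposed WT cells and 103.1 and 129.6 in untreated WT cells. It was higher in KO cells by 1.57 ± 0.15 untreated (adjusted p = 7.66e-05) and 0.86 ± 0.15 with ethanol (adjusted p = 0.00240). The kinase Jak1 and the shared receptor chain Il6st were higher in both comparisons, by 0.40 to 0.54. Ethanol raised Cebpa, a liver-enriched transcription factor, by 1.05 in each genotype (adjusted p = 0.0036 in KO and 0.0095 in WT).

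The BMP and SMAD list of 17 tested genes was mixed, with 5 higher and 4 lower in untreated KO cells and 3 higher and 3 lower with ethanol, against 15.3% higher and 16.9% lower untreated and 14.0% and 15.1% with ethanol over all probe sets tested. Id1, a direct target of BMP signalling, had 930.2 and 989.0 units in ethanol-exposed KO cells and 409.8 and 392.7 in untreated KO cells, against 2513 and 2345 in ethanol-exposed WT cells and 2271 and 2264 in untreated WT cells. It was the lowest of the list in KO cells, by −2.45 ± 0.08 untreated (adjusted p = 8.78e-08) and −1.33 ± 0.08 with ethanol (adjusted p = 4.83e-06), and ethanol raised it in KO cells by 1.23 ± 0.08 (adjusted p = 9.40e-05). The ethanol effects differed between genotypes, with an interaction of 1.13 ± 0.11 (adjusted p = 0.00186). Tmprss6, a protease that restrains hepcidin expression, followed the same order of group means, with 1392 and 1290 units in ethanol-exposed KO cells and 832.2 and 808.5 in untreated KO cells, against 1643 and 1445 in ethanol-exposed WT cells and 1404 and 1368 in untreated WT cells. It was lower in untreated KO cells by −0.75 ± 0.09 (adjusted p = 2.57e-04), and its interaction was 0.55 ± 0.13 (adjusted p = 0.0382). The BMP receptor Acvr1 and the inhibitory Smad6 were higher in KO cells in both comparisons, Acvr1 by 1.04 untreated and 0.90 with ethanol, and Smad6 by 0.65 and 1.20. Hjv, the BMP co-receptor haemojuvelin, was lower in untreated KO cells (−0.87, adjusted p = 0.0239) and rose with ethanol in KO cells by 1.12 (adjusted p = 0.012). It was dim in untreated KO cells, with 20.6 and 40.9 units, against 67.04 and 68.21 in untreated WT cells. Hjv was also higher on both ethanol-exposed WT arrays, with 140.7 and 149.6 units. No gene of the list was called higher with ethanol in WT cells, and the interaction of Hjv was not called. The iron-responsive ligand Bmp6 was dim, with 24.8 to 74.0 units over the 8 arrays, and not called.

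**Figure D5:**
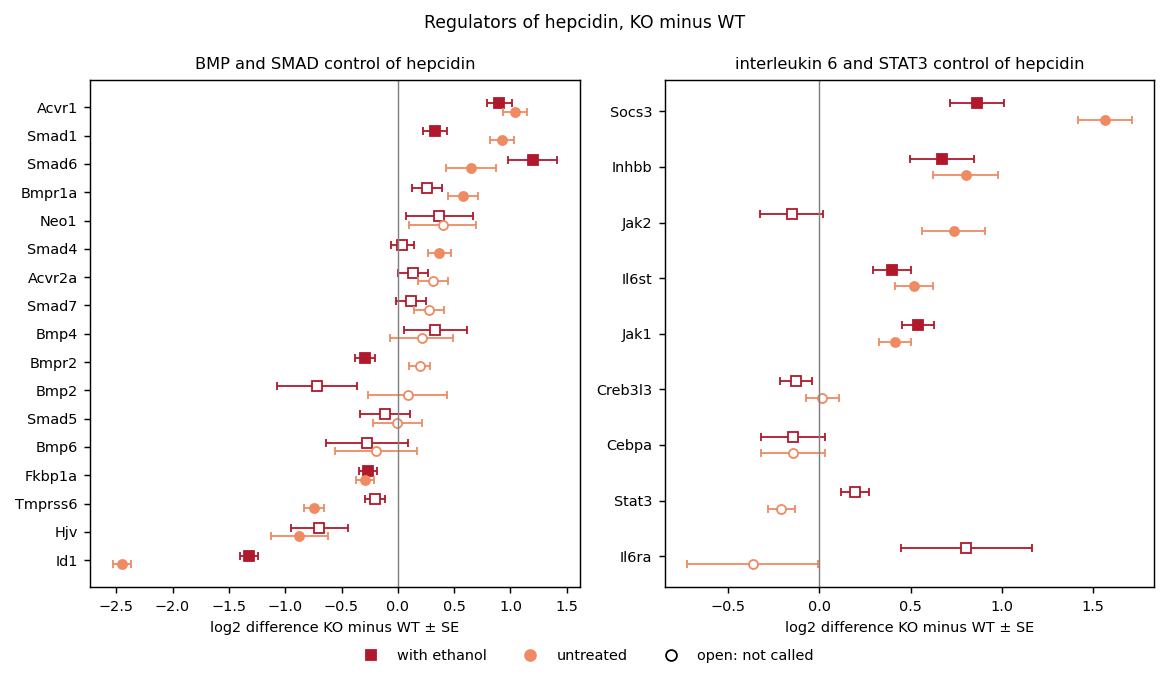
Log2 difference of KO minus WT (horizontal axis, points with SE bars) for the tested genes of the BMP and SMAD list (left) and the interleukin 6 and STAT3 list (right), with squares for ethanol-exposed and circles for untreated cells. Filled points were called at an adjusted p under 0.05, and Il6 is not drawn because its WT values were near 0. Id1 lies furthest left, at −1.33 with ethanol and −2.45 untreated.

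Other genes that handle iron were counted in the same way, against the same shares of all probe sets: 15.3% higher and 16.9% lower in untreated KO cells, and 14.0% higher and 15.1% lower with ethanol. In the list of the iron regulatory protein system and storage, 3 of 8 tested genes were higher and 1 lower in untreated KO cells, and 4 were higher and 0 lower with ethanol. Ncoa4, which delivers ferritin for degradation and so frees its iron, had 2623 and 2963 units in ethanol-exposed KO cells and 3874 and 3965 in untreated KO cells, against 1569 and 1412 in ethanol-exposed WT cells and 1934 and 1772 in untreated WT cells. Its KO minus WT difference was 1.08 ± 0.09 untreated (adjusted p = 3.32e-05) and 0.90 ± 0.09 with ethanol (adjusted p = 9.38e-05). Fbxl5, the iron-sensing subunit of a ubiquitin ligase that removes iron regulatory protein 2, was also higher in both, by 0.79 and 0.46, as was Hif1a.

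Among 9 tested genes of other iron uptake and reduction, 1 was higher and 3 lower in untreated KO cells, and 2 were higher and 4 lower with ethanol. Over all probe sets 32.3% and 29.1% were called in either direction. Steap2, a relative of Steap4 with the same kind of reductase activity, went the other way from it, with 134.6 and 146.5 units in ethanol-exposed KO cells and 210.8 and 179.4 in untreated KO cells, against 672.0 and 567.6 in ethanol-exposed WT cells and 591.8 and 603.0 in untreated WT cells. Its KO minus WT difference was −1.54 ± 0.13 untreated (adjusted p = 4.50e-05) and −2.02 ± 0.13 with ethanol (adjusted p = 8.97e-06). Lrp1, which takes up haem bound to haemopexin, was lower by −1.51 untreated and −0.94 with ethanol. Slc11a2, the divalent metal transporter 1, rose with ethanol in KO cells by 0.82 (adjusted p = 0.00429). Of 16 tested genes of haem synthesis, transport and breakdown, 3 were higher and 6 lower in untreated KO cells, and 3 higher and 5 lower with ethanol, beside the 32.3% and 29.1% called over all probe sets.

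Hmox1, the inducible haem oxygenase that frees iron from haem, had 4574 and 4752 units in ethanol-exposed KO cells and 4394 and 4586 in untreated KO cells, against 1849 and 1737 in ethanol-exposed WT cells and 2530 and 2260 in untreated WT cells. All KO arrays were above all WT arrays, by 0.90 ± 0.08 untreated (adjusted p = 4.10e-05) and 1.37 ± 0.08 with ethanol (adjusted p = 3.47e-06). Ethanol lowered it in WT cells by −0.41 ± 0.08 (adjusted p = 0.0157), and the interaction was 0.47 ± 0.11 (adjusted p = 0.0409). Alad, the second enzyme of haem synthesis, was lower in KO cells, by −1.31 ± 0.09 untreated (adjusted p = 1.33e-05) and −0.80 ± 0.09 with ethanol (adjusted p = 2.25e-04). Of 10 tested genes of mitochondrial iron and iron-sulphur clusters, 1 was higher and 3 lower in untreated KO cells, and 3 higher and 2 lower with ethanol, beside the 32.3% and 29.1% called over all probe sets.

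By a rule set for pattern likeness, the 5 genes of 10740 compared with the highest Pearson correlation to a member over the 8 arrays were listed for Hamp and Steap4. For Hamp these were Gsta2 (0.979), Il33 (0.970), Nr1d2 (0.968), Sp1 (0.968) and Smad4 (0.964). For Steap4 they were C9orf72 (0.999), Ero1a (0.998), Cebpd (0.997), Selenbp1 (0.997) and Ehhadh (0.997). These correlations are over 8 arrays that share 4 groups, so a step between groups is enough to give them.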

How the data were processed

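Affymetrix intensities on a linear scale are what the authors deposited, 1 for each of 45101 probe sets on each array; how probes were summarised and arrays scaled is not given in the sources used here. On ethanol WT array B, 5410 values were unusable, so the 39627 complete probe sets, without 64 control probe sets, were quantile normalised here. Values were transformed as log2(intensity + 16), the 50% brightest probe sets by mean were kept (19814), and 4 group means were fitted with an intensity trend (limma 3.58.1, R 4.3.3). A fold change on this scale understates that of dim genes. p-values were adjusted by Benjamini-Hochberg within each of 5 contrasts. The fit was tested on simulated data.

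Groups follow the titles, although the treatment text of the B ethanol arrays reads as an untreated incubation. Nothing states that A and B are separate cultures or animals, so p-values measure only how these samples spread, possibly for technical reasons, and the number of arrays limits the precision. The main fit did not treat A and B as pairs. Over 6 pairs of groups their deviations correlated at 0.02 to 0.30, which is weak but positive throughout.

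The members and the related gene lists were chosen with earlier results of these data known. All members are named, and from each related list up to 4 genes per contrast by smallest adjusted p. Hamp2 and Bmp6 were named after their values were seen. Alternatives covered the offset, filter, scaling, variance trend, replicate block, probe set, spike-in set, B ethanol arrays and single arrays left out.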

Additional observations from a re-analysis of the deposited data

Results flagged for a closer look

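Cp, which encodes ceruloplasmin, was the 1 iron gene whose leading probe set responded differently to ethanol in the 2 genotypes by the interaction test. The ethanol difference was −0.38 ± 0.07 in KO cells and 0.08 ± 0.07 in WT cells, and the difference between them was −0.46 ± 0.09 on the log2 scale (limma, adjusted p = 0.0224). With the arrays scaled by their trimmed mean it was −1.04 (adjusted p = 0.00413). The probe set lies at the top of the measured range, and 4 of the other 5 Cp probe sets had a negative interaction that was not called on the quantile scale. On the trimmed-mean scale 1417495_x_at, 1455393_at and 1448734_at were called as well.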

How the results depend on the processing

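Counts of called iron genes depended on the setting as follows. For KO against WT in untreated cells, 8 of 9 genes were called, against 5 without the intensity trend, 5 with both B ethanol arrays taken as untreated, and 5 to 8 with single arrays left out. For KO against WT with ethanol, 5 were called, against 3 with both B ethanol arrays taken as untreated and 4 to 5 with single arrays left out. For ethanol in KO cells, 2 were called, against 5 with trimmed-mean scaling, 1 without the trend, 5 without the B ethanol arrays, 0 with them taken as untreated, and 0 to 4 with single arrays left out. Over all probe sets the called share in these settings was 22.2%, 23.7%, 13.5%, 37.3% and 1.92%, so it moved as well. For ethanol in WT cells, 0 were called, against 1 by the dimmest tested probe set, 1 without the B ethanol arrays, 2 with only the groups compared, and 0 to 3 with single arrays left out. For the interaction, 1 was called, against 0 without the filter, 2 with trimmed-mean scaling, 0 without the trend, 3 without the B ethanol arrays, 0 with them taken as untreated, and 0 to 3 with single arrays left out. The called share over all probe sets was 5.35%, and 1.67%, 6.64%, 0.429%, 16.5% and 0% in these settings. For ethanol in WT cells the share was 5.58% in the main fit and by the dimmest tested probe set. It was 5.31% without the B ethanol arrays and 7.45% with only the groups compared. For KO against WT untreated it was 32.3%, against 27.5% without the trend and 25.1% with the B ethanol arrays taken as untreated. For KO against WT with ethanol it was 29.1%, against 6.90% with them taken as untreated. A leave-one-out fit leaves 1 group with a lone array, which is assumed to vary like the others. The called share over all probe sets moved in those fits too.

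Sign changes that involved a call were Fth1 with trimmed-mean scaling (0.90, KO against WT untreated) and, by the dimmest tested probe set, Tfrc (0.62 untreated and 0.96 with ethanol, KO against WT), Slc40a1 (0.0208) and Cp (1.71) for KO against WT with ethanol, Steap4 for ethanol in WT (−0.53), and Cp for ethanol in KO (0.0415) and the interaction (0.42). The dimmest tested probe sets of Tfrc and Cp passed the filter on low values through the KO arrays. That selection favours a higher KO value, so their KO against WT sizes and calls cannot decide the direction. They are listed only as the outcome of that setting, and the same limit holds for the Cp interaction. The cause of the sign changes was not tested. With the array letter as a replicate block, the counts were 8, 5, 2, 0 and 1 in the order above, so the block changed no count. The called shares over all probe sets were then 34.3%, 31.1%, 24.8%, 5.90% and 6.26%. The calls of Steap4 and of Slc40a1 in untreated cells, of Slc39a14 in untreated cells and of Steap4 with ethanol held in every alternative run.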
